A study of Mus musculus with 7 samples.

Results

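The genes described here encode the receptors with which mouse embryonic fibroblasts hold their matrix: integrin alpha and beta subunits, the 4 syndecans, the glypicans Gpc1, Gpc4 and Gpc6, and the receptors Cd44, Cd47, Dag1, Ddr1 and Ddr2. They were chosen by gene symbol, and 41 probe sets named a single such gene. With the probe set of highest mean kept for each gene, 39 genes remained of 19937 on the array, and 38 of them were among the 16801 genes tested. The 8 subunits of integrins known to bind tenascin-C (Itga2, Itga7, Itga8, Itga9, Itgav, Itgb1, Itgb3 and Itgb6) were set apart from the other 31 genes. Cells came from 3 groups, all spontaneously immortalised and untreated: 2 clones labelled as from a tenascin-C knockout mouse (knockout), 2 clones of wild-type mouse cells carrying a stable short hairpin RNA against Tnc (knockdown), and 3 clones from a wild-type mouse. Each clone was seeded at 50000 cells a well, cultured for 2 days in serum-containing medium and measured on 1 array after whole-transcript labelling (Affymetrix). No group with a control hairpin is analysed here, and knockout and wild-type cells came from different mice, so genotype and mouse of origin cannot be told apart. The labels do not say that the clones within a group derive from separate animals. The p-values therefore set differences between groups against the spread between these clones, and do not reach to other animals.

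Integrins are heterodimers of an alpha and a beta subunit. Their outer parts bind matrix proteins and their short inner tails recruit talin, kindlin, tensin and kinases into focal adhesions. Syndecans and glypicans carry heparan sulphate chains, and syndecan-4 acts with the fibronectin receptor alpha5beta1 when fibroblasts spread on fibronectin. Tenascin-C is a matrix glycoprotein that hinders this spreading, and several integrins bind it directly.

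Tnc itself (probe set 10513739) had log2 signals of 8.05 and 8.51 on the knockout arrays and 7.34 and 6.52 on the knockdown arrays, against 10.89, 11.42 and 11.38 in wild type. All deficient arrays lay below all wild-type arrays. Tnc fell by 2.95 ± 0.295 (SE) on the log2 scale in knockout (limma adjusted p = 0.0420). In knockdown it fell by 4.30 ± 0.295 (limma adjusted p = 0.0339). Tnc also passed in both with a stricter filter on dim genes and after quantile normalization. It did not pass without that filter (limma adjusted p = 0.0539 in knockout and 0.0577 in knockdown). Nor did it pass with any single array left out. Its log2 difference then ran from -3.17 to -2.72 in knockout and from -4.70 to -3.89 in knockdown. Without wild-type array 1 the differences were -3.12 and -4.47 (limma adjusted p = 0.106 and 0.199). With only the groups compared in the fit, limma adjusted p was 0.0800 in knockout and 0.144 in knockdown. The position of its probes relative to the knockout deletion was not determined, so the knockout values alone do not check that label. Of 13 fibroblast markers, 11 lay above the array median on all 7 arrays, while Lum did so on 5 arrays and Fap on 1. Of the leukocyte and endothelial markers, 7 of 10 and 6 of 8 lay below it on all arrays, while Cd68 and Egfl7 lay above it on all. Among neural and glial markers, 4 of 6 were measured: Sox10, Ncam1 and Tubb3 lay above it on all arrays and Gfap below it on all. Of 6 skeletal muscle markers, 4 lay below it on all arrays, Actc1 above it on all and Myod1 above it on 6. The female-specific RNA Xist stood at 8.80 on knockout array 2, and elsewhere at 3.51 to 3.77. Eif2s3y, a gene of the Y chromosome, stood at 3.77 on knockout array 2 and 5.46 on knockdown array 2, and at 7.51 to 8.78 on the other arrays, so both arrays stand apart from their groups. The signals are male on knockout array 1 and female on knockout array 2, which a single animal would not give although the labels speak of 1 mouse, and sex differs within the knockout group.

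None of the 38 receptor genes passed the test over all genes (limma adjusted p under 0.05) in any comparison. In knockout against wild type 0.167% of all genes passed it, 0.119% higher and 0.0476% lower. In knockout 10 members had an unadjusted p under 0.05, 9 of them higher and 1 lower. That is 26.3% of the members, while over all genes the share was 12.8% (7.33% higher and 5.50% lower). In knockdown against wild type 0.0179% of all genes passed the adjusted test, all of them lower. There 6 members were higher at this unadjusted threshold and 0 were lower, a share of 15.8%, against 14.1% of all genes (7.12% higher and 6.99% lower). With both deficient groups set against wild type, 0.0298% of all genes passed the adjusted test (0.0179% higher and 0.0119% lower). In that comparison 7 members were higher and 1 lower at the unadjusted threshold, 21.1%, against 12.3% of all genes (6.48% higher and 5.78% lower). The median log2 difference of the members was 0.14 in knockout and 0.11 in knockdown, against -0.03 and 0.03 over all genes. The comparisons with wild type share the same 3 wild-type arrays. Members whose knockout arrays did not overlap wild type numbered 14 (12 higher and 2 lower, 36.8%), against 28.5% of all genes (13.2% higher and 15.3% lower). In knockdown the number was also 14 (11 higher and 3 lower, 36.8%), against 30.5% of all genes (17.5% higher and 12.9% lower). In such bulk samples fewer cells of a type and less RNA per cell cannot be told apart.

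**Figure D1:**
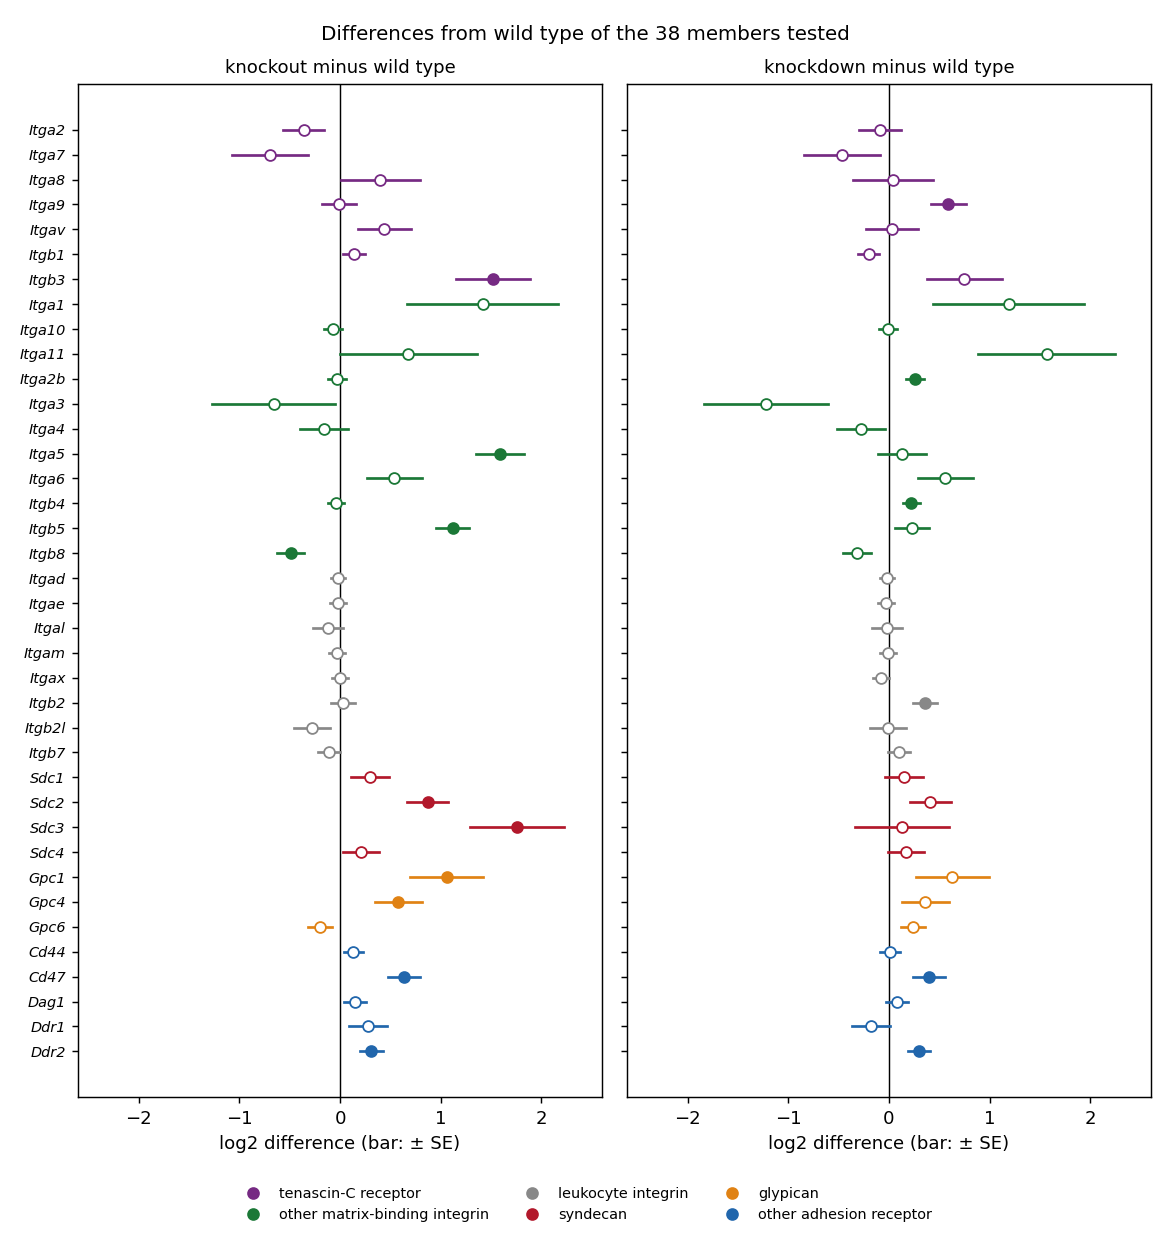
Log2 difference of each of the 38 members tested, knockout minus wild type on the left and knockdown minus wild type on the right, with bars of ± 1 SE from limma and filled points at an unadjusted p under 0.05. Filled points number 10 on the left and 6 on the right, and Sdc3, Itga5 and Itgb3 lie farthest right among them, at 1.76, 1.59 and 1.52 in knockout.

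Among the tenascin-C receptors, Itgb3 differed most from wild type. Itgb3, the beta subunit that pairs with alpha-v into an RGD-binding receptor of vitronectin, fibronectin and tenascin-C, had signals of 7.76 and 8.65 in knockout and 7.62 and 7.25 in knockdown, against 6.65, 7.20 and 6.20 in wild type. All 4 deficient arrays lay above all 3 wild-type arrays. The log2 difference was 1.52 ± 0.369 (SE), or 2.87-fold, in knockout (limma adjusted p = 0.188) and 0.75 ± 0.369 in knockdown (limma adjusted p = 0.432). Its partner Itgav stood at 10.78 and 10.58 in knockout and at 10.57 and 9.98 in knockdown, against 9.81, 10.46 and 10.46 in wild type. Both knockout arrays and 1 knockdown array lay just above the wild-type range, and the other knockdown array lay within it (log2 differences 0.44 and 0.03, limma adjusted p = 0.531 and 0.975). The 95% interval in knockout ran from -0.20 to 1.08.

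Itga9, whose product pairs with beta1 and binds a fibronectin type III repeat of tenascin-C, was set apart in knockdown. It had 5.66 and 5.33 in knockout and 6.02 and 6.17 in knockdown, against 5.34, 5.79 and 5.39 in wild type. Both knockdown arrays were above every other array, and the knockout arrays lay among or just below the wild-type arrays. The log2 difference was 0.59 ± 0.173 (SE) in knockdown (limma adjusted p = 0.236) and -0.01 ± 0.173 in knockout (limma adjusted p = 0.988). Knockout differed from knockdown by -0.60 ± 0.189 (limma adjusted p = 0.197). Itgb1, the common beta subunit of the collagen, laminin and fibronectin receptors, read 12.09 and 11.95 in knockout and 11.76 and 11.59 in knockdown, against 11.75, 11.89 and 11.99 in wild type. It varied little: its differences from wild type were 0.14 (95% interval -0.12 to 0.40) in knockout and -0.20 (-0.46 to 0.06) in knockdown.

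The remaining tenascin-C receptor subunits lay near or below the array medians. Itga8, which pairs with beta1 to bind nephronectin and tenascin-C, had 5.20 and 6.59 in knockout and 5.53 and 5.53 in knockdown, against 5.38, 5.79 and 5.31 in wild type, so the 2 knockout clones lay on opposite sides of the other arrays. Itga7, the alpha subunit of a muscle laminin receptor, had 5.15 and 5.62 in knockout and 5.63 and 5.62 in knockdown, against 6.86, 5.68 and 5.72 in wild type. All deficient arrays were below wild type, by a wide margin only for wild-type array 1 (log2 difference -0.70 in knockout, limma adjusted p = 0.491). Itga2, of a collagen receptor, stood at 5.23 and 4.85 in knockout and 5.43 and 5.20 in knockdown, against 5.23, 5.23 and 5.75 in wild type, with overlapping groups. Itgb6, the epithelial partner of alpha-v, had 3.79 and 3.80 in knockout and 3.78 and 3.79 in knockdown, against 3.79, 3.91 and 3.79 in wild type, below the 25th percentile of every array, and was not tested. Over the 7 receptors tested, 4 were higher and 3 lower in knockout (median log2 difference 0.14), and 4 higher and 3 lower in knockdown (median 0.03). The other 31 members had medians of 0.13 in both comparisons, with 17 higher and 14 lower in knockout and 20 higher and 11 lower in knockdown.

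**Figure D2:**
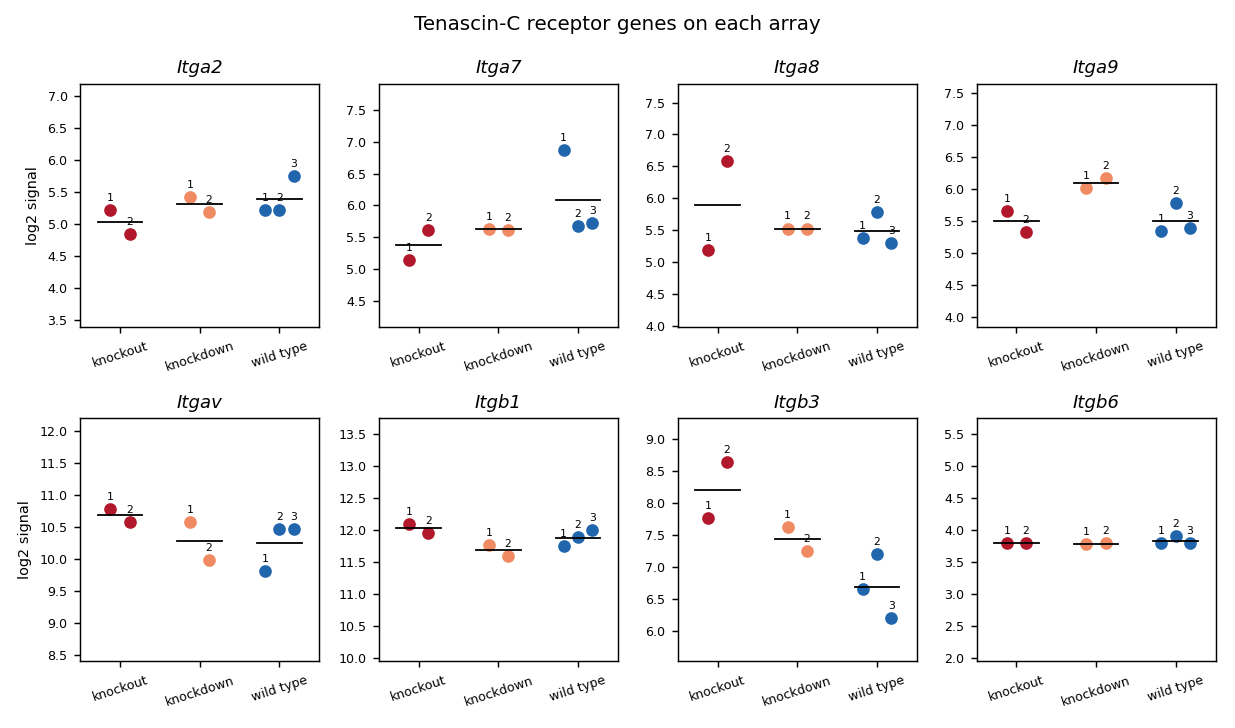
Log2 signal of the 8 tenascin-C receptor genes on each array, by group, with clone numbers above the points, black bars at group means and an equal span on every vertical axis. Itgb3 is higher on all 4 deficient arrays than in wild type, Itga9 is highest on the 2 knockdown arrays, and Itgb1 stays between 11.59 and 12.09 on all arrays.

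The members with the smallest p in knockout were Itga5 and Itgb5, subunits of 2 different receptors. Itga5, the alpha subunit of the fibronectin receptor alpha5beta1 (probe set 10433114, chromosome 15), had 10.35 and 10.41 in knockout and 8.94 and 8.90 in knockdown, against 8.30, 9.08 and 8.99 in wild type. Knockout cells stood above all others, and knockdown cells lay inside the wild-type range. The log2 difference was 1.59 ± 0.234 (SE), or 3.01-fold, in knockout (n = 2 against 3, limma adjusted p = 0.0784) and 0.13 ± 0.234 in knockdown (limma adjusted p = 0.849). Knockout exceeded knockdown by 1.46 ± 0.256 (limma adjusted p = 0.0865). Itgb5, which pairs with alpha-v into a vitronectin receptor (probe set 10435305, chromosome 16), had 10.85 and 10.84 in knockout and 10.11 and 9.81 in knockdown, against 9.47, 9.73 and 9.98 in wild type. The knockout arrays again stood clear of the rest. Its log2 difference was 1.12 ± 0.166, or 2.17-fold, in knockout (limma adjusted p = 0.0798) and 0.23 ± 0.166 in knockdown (limma adjusted p = 0.585), and knockout exceeded knockdown by 0.88 ± 0.182 (limma adjusted p = 0.111). The Itga5 difference passed in 2 of 17 other settings: 1.59 with a stricter filter on dim genes (limma adjusted p = 0.0488) and 1.34 without wild-type array 1 (limma adjusted p = 0.0477). The adjusted test called 79 of 11968 genes with that filter and 14 of 16801 without that array, against 28 of 16801 in the main fit. Itgb5 passed in 1 setting, at 1.16 with arrays centred on their medians (limma adjusted p = 0.0472), where 71 of 16801 genes were called.

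Itga5, Itgb5, Cd47 and Sdc3 are the members with an unadjusted p under 0.01 in knockout whose promoters are in the RefSeq promoter table (4 of 6 such genes), and their sequences are shown so that the upstream regions of receptor genes that stood higher in knockout can be compared. Each is the 250 bases before the annotated start, build GRCm38.p6, 5′ to 3′ on the gene's strand: Itga5 at chr15:103366792-103367041 on the minus strand, Itgb5 at chr16:33829415-33829664, Cd47 at chr16:49855404-49855653 and Sdc3 at chr4:130792287-130792536, the last 3 on the plus strand (Cd47 is 1 of 2 overlapping entries). Capitals mark matches to the GC box (GGGCGG or CCGCCC).
Itga5: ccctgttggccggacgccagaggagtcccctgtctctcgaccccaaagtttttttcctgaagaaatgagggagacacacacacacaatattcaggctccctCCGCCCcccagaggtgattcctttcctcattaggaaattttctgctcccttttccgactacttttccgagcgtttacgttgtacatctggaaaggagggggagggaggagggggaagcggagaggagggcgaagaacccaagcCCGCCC
Itgb5: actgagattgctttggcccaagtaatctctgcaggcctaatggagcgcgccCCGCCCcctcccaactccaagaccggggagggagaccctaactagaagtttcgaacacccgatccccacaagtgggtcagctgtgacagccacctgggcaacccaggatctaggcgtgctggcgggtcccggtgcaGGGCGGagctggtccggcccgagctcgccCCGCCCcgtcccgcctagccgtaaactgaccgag
Cd47: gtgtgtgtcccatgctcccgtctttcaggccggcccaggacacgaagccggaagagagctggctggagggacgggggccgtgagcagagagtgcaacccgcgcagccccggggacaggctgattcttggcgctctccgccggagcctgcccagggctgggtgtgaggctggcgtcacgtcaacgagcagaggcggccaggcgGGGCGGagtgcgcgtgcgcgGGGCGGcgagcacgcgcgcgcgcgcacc
Sdc3: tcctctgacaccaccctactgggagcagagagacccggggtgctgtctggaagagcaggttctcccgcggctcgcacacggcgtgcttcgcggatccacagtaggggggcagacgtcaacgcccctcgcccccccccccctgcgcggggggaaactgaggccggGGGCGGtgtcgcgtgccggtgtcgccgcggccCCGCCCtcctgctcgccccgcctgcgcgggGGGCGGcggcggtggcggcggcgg
The windows held 2, 3, 2 and 3 GC boxes, and their G and C content was 55.6%, 65.2%, 73.2% and 76.4%. A GC box was found in 32.7% of the 32851 promoter windows of this length and in 13 of the 28 windows of members. The TATA box (TATAAA), the AP-1 site (TGANTCA) and the MCAT element (GGAATG), each searched on both strands, had no match in these 4 windows. They occur in 12.4%, 6.75% and 12.6% of all windows. The matches overlapped no other motif searched. These are letter matches, not measured binding sites.

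**Figure D3:**
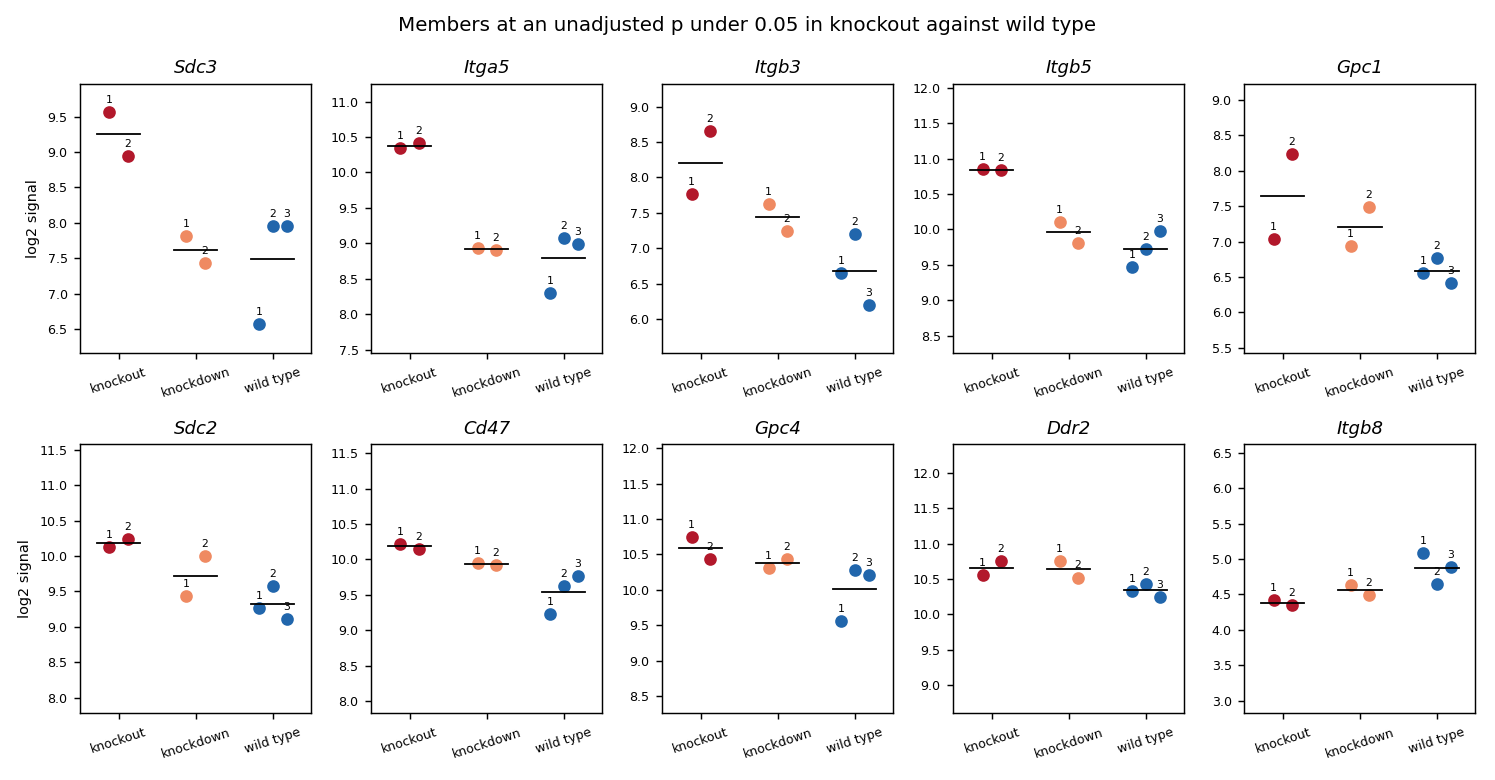
Log2 signal on each array of the 10 members with an unadjusted p under 0.05 in knockout against wild type, by group, with clone numbers above the points, black bars at group means and an equal span on every vertical axis. Itga5 and Itgb5 differ by 0.06 or less between the knockout clones in the plotted signals, whereas Sdc3, Itgb3 and Gpc1 are more scattered and wild-type array 1 is low for Sdc3, Itga5, Cd47 and Gpc4.

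The collagen receptor subunits Itga1 and Itga11 and the laminin receptor subunit Itga3 varied widely between clones of the same group. Itga1, of a collagen receptor, had 8.94 and 7.33 in knockout and 7.41 and 8.39 in knockdown, against 5.74, 7.85 and 6.54 in wild type. Its group means differed by 1.42 ± 0.75 (SE) in knockout (limma adjusted p = 0.485) and 1.19 ± 0.75 in knockdown (limma adjusted p = 0.534), with overlapping arrays. The knockout difference was 0.62 without knockout array 1 and 2.23 without knockout array 2. Itga11, the fibroblast collagen receptor subunit, had 7.61 and 6.27 in knockout and 7.58 and 8.08 in knockdown, against 5.09, 7.22 and 6.46 in wild type. Both knockdown arrays and knockout array 1 were above wild type, and knockout array 2 lay within its range. The log2 difference was 0.68 ± 0.68 in knockout (limma adjusted p = 0.690) and 1.57 ± 0.68 in knockdown (limma adjusted p = 0.380). Without wild-type array 1 these were 0.10 and 0.99, and with single arrays left out the knockout difference ran between 0.02 and 1.35. Itga3, of a laminin receptor, had 6.82 and 7.67 in knockout and 6.30 and 7.06 in knockdown, against 9.08, 7.32 and 7.32 in wild type. Wild-type array 1 was far above all others. The difference was -0.66 ± 0.615 in knockout (limma adjusted p = 0.670) and -1.22 ± 0.615 in knockdown (limma adjusted p = 0.444). Without wild-type array 1 these were -0.07 and -0.64. The spread between clones (pooled SD) was 1.01 for Itga1, 0.914 for Itga11 and 0.826 for Itga3, above 99.4%, 99.3% and 99.0% of all genes tested. Others of these receptors were steadier, with 0.0866 for Itga10, 0.0754 for Itgb4 and 0.115 for Itgb1. The median pooled SD was 0.220 over the 38 members and 0.140 over all genes, and 26 members exceeded 0.140.

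Of the other matrix-binding subunits, Itgb8 was dim, and Itga4 and Itga10 differed little. Itgb8, which pairs with alpha-v and releases active TGF-beta from its latent complex, had 4.42 and 4.35 in knockout and 4.63 and 4.49 in knockdown, against 5.09, 4.65 and 4.89 in wild type. It lay below the median of every array. It was the 1 lower member at an unadjusted p under 0.05 in knockout (log2 difference -0.49 ± 0.137 SE, limma adjusted p = 0.233), and in knockdown it stood at -0.32 ± 0.137 (limma adjusted p = 0.381). Itga6, of a laminin receptor, lay above the median of every array. It differed by 0.54 in knockout (limma adjusted p = 0.474) and 0.56 in knockdown (limma adjusted p = 0.426). Its knockout arrays lay above all wild-type arrays, and its knockdown arrays overlapped them. Itga4, a subunit that binds fibronectin and VCAM-1, was at -0.16 and -0.28, and Itga10, another collagen-binding subunit, at -0.07 and -0.01.

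Itga2b, Itgb4 and Itgb2, subunits known from platelets, epithelia and leukocytes, had an unadjusted p under 0.05 in knockdown. Itga2b, the platelet fibrinogen receptor subunit, had 5.92 and 6.00 in knockout and 6.15 and 6.34 in knockdown, against 5.91, 6.03 and 6.03 in wild type (knockdown difference 0.26 ± 0.0909 SE, limma adjusted p = 0.302). Itgb4, of the hemidesmosome, had 5.80 and 5.65 in knockout and 5.98 and 5.99 in knockdown, against 5.68, 5.78 and 5.83 in wild type (knockdown difference 0.22 ± 0.0839, limma adjusted p = 0.326). Itgb2, the common leukocyte beta subunit, had 4.88 and 4.88 in knockout and 5.32 and 5.11 in knockdown, against 4.67, 4.88 and 5.0 in wild type (knockdown difference 0.36 ± 0.122, limma adjusted p = 0.283). In each, both knockdown arrays lay above all wild-type arrays. Itgb2 lay below the median of every array, and such dimmer genes had a median knockdown difference of 0.045, against 0.013 for brighter genes. Of the 4 platelet markers measured of 6, Pf4 and Gp9 lay below the median on all arrays, Treml1 lay above it on all and Ppbp on some. Ppbp, a platelet chemokine gene, differed by -1.18 in knockout and -1.40 in knockdown. The 4 markers summed to 20.00 and 20.93 in knockout, 20.11 and 20.94 in knockdown, and 21.90, 21.79 and 22.40 in wild type. Epcam, Cdh1 and 4 other epithelial markers of 8 lay below the median on all arrays, while Krt8 and Cldn4 lay above it on all. Of the 8 leukocyte integrin genes, Itgad, Itgae, Itgal, Itgam, Itgax and Itgb2 lay below the median on all arrays, Itgb2l did so on some and Itgb7 on none. In knockout 0 of the 8 had an unadjusted p under 0.05 by limma, and their differences ran from -0.28 to 0.03. In knockdown Itgb2 was the 1 of 8 (12.5%, against 14.1% of all genes), and the differences ran from -0.08 to 0.36. Of 10 leukocyte markers, 7 lay below the median on all arrays, among them Ptprc, Adgre1 and Csf1r, while the macrophage marker Cd68 lay above it on all. Lyz2, of macrophages and granulocytes, had 5.59 and 4.81 in knockout and 3.96 and 4.26 in knockdown, against 4.06, 4.03 and 4.25 in wild type, a knockout difference of 1.09 with no overlap. The summed log2 signal of the 10 markers was 47.44 and 48.03 in knockout, 46.88 and 46.98 in knockdown, and 46.85, 46.22 and 47.76 in wild type.

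All 4 syndecan genes stood higher in knockout on average, with Sdc3 and Sdc2 apart from wild type. Sdc3, known mainly from nerve and muscle, had 9.56 and 8.94 in knockout and 7.81 and 7.43 in knockdown, against 6.57, 7.95 and 7.95 in wild type. Only the knockout arrays lay outside the wild-type range, with a log2 difference of 1.76 ± 0.464 (SE), or 3.38-fold (limma adjusted p = 0.215). In knockdown the difference was 0.13 ± 0.464 (limma adjusted p = 0.932), and knockout exceeded knockdown by 1.63 ± 0.509 (limma adjusted p = 0.192). Sdc2, a syndecan of mesenchymal cells, had 10.13 and 10.24 in knockout and 9.44 and 10.00 in knockdown, against 9.27, 9.58 and 9.11 in wild type. Knockout arrays were above wild type (0.87 ± 0.205, limma adjusted p = 0.182), and the knockdown arrays straddled the upper end of its range (0.41 ± 0.205, limma adjusted p = 0.446). Sdc4, the focal adhesion syndecan whose binding site on fibronectin tenascin-C can cover, differed by 0.21 in knockout (95% interval -0.22 to 0.64) and 0.17 in knockdown (-0.26 to 0.60) and did not pass. Sdc1 was at 0.30 and 0.15.

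The glypicans Gpc1 and Gpc4, lipid-anchored heparan sulphate proteoglycans, had all 4 deficient arrays above all wild-type arrays. Gpc1 had 7.04 and 8.24 in knockout and 6.93 and 7.49 in knockdown, against 6.56, 6.77 and 6.42 in wild type. Its log2 difference was 1.06 ± 0.364 (SE) in knockout (limma adjusted p = 0.324) and 0.63 ± 0.364 in knockdown (limma adjusted p = 0.498). It was 1.66 without knockout array 1 and 0.46 without knockout array 2, and in knockdown 0.91 and 0.35 without knockdown array 1 and 2. Gpc4, on the X chromosome, had 10.75 and 10.44 in knockout and 10.31 and 10.44 in knockdown, against 9.56, 10.28 and 10.21 in wild type (log2 difference 0.58 ± 0.234 in knockout, limma adjusted p = 0.387, and 0.36 ± 0.234 in knockdown, limma adjusted p = 0.551). The margin was narrow, with the lowest deficient array at 10.31 and the highest wild-type array at 10.28. Without wild-type array 1 the Gpc4 differences were 0.35 in knockout and 0.13 in knockdown. Gpc6 had 8.49 and 8.10 in knockout and 8.77 and 8.71 in knockdown, against 8.46, 8.55 and 8.49 in wild type. Knockdown arrays were highest for Gpc6, and knockout differed from knockdown by -0.44 ± 0.133 (limma adjusted p = 0.184).

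Among the remaining adhesion receptors, Cd47 and Ddr2 stood higher in both deficient groups. Cd47, a receptor of thrombospondin that associates with integrins, had 10.22 and 10.15 in knockout and 9.95 and 9.92 in knockdown, against 9.23, 9.62 and 9.77 in wild type. The 3 groups did not overlap, with differences of 0.64 ± 0.159 (SE) in knockout (limma adjusted p = 0.197) and 0.40 ± 0.159 in knockdown (limma adjusted p = 0.347). A further Cd47 probe set gave 0.65 and 0.47, with all deficient arrays (9.74, 9.36, 9.45 and 9.30) above wild type (8.46, 9.03 and 9.21). Ddr2, a receptor tyrosine kinase for fibrillar collagen, had 10.55 and 10.75 in knockout and 10.75 and 10.52 in knockdown, against 10.33, 10.43 and 10.25 in wild type (0.31 ± 0.113, limma adjusted p = 0.344, and 0.30 ± 0.113, limma adjusted p = 0.323). Ddr1, the related epithelial collagen receptor, was at 0.28 and -0.18, the hyaluronan receptor gene Cd44 at 0.13 and 0.01, and the dystroglycan gene Dag1 at 0.15 and 0.08.

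In the comparison of both deficient groups with wild type, 7 members had all 4 deficient arrays on 1 side of wild type (5 higher and 2 lower). That is 18.4% of the members, against 7.70% of all genes (4.15% higher and 3.55% lower). Higher were Itgb3 (1.14 ± 0.309 SE), Gpc1 (0.84 ± 0.304), Cd47 (0.52 ± 0.133), Gpc4 (0.47 ± 0.196) and Ddr2 (0.30 ± 0.0942), and lower were Itga7 (-0.58 ± 0.315) and Itgb8 (-0.40 ± 0.115). The limma adjusted p of these genes ran between 0.260, for Cd47, and 0.507, for Itga7.

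Between knockout and knockdown, 9 members (23.7%) had an unadjusted p under 0.05, 4 higher and 5 lower, against 17.9% of all genes (9.05% higher and 8.87% lower). Of all genes, 0.375% passed the adjusted test (0.274% higher and 0.101% lower). Arrays of 17 members did not overlap (9 higher and 8 lower, 44.7%), against 45.0% of all genes (17.8% higher and 27.2% lower). Itga5, Itgb5, Sdc3 and Itgb1 (0.34 ± 0.116 SE, limma adjusted p = 0.217) were higher in knockout. Itga9, Gpc6, Itga2b (-0.29), Itgb4 (-0.26) and Itgb2 (-0.33) were lower in knockout than in knockdown. The wild-type arrays enter only through the shared estimate of spread. Without wild-type array 1 the Itga5 difference passed (1.46, limma adjusted p = 0.0289). In that fit 16 of 16801 genes passed the adjusted test, against 63 with all arrays.

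Wild-type array 1 stood apart for these genes. It was the lowest of the 7 arrays for 15 of the 38 members, whereas it was lowest for 16.5% of all genes, and highest for Itga7, Itga3 and Itgb8. Its median deviation from the gene means was -0.14 over the members, against -0.01 over all genes. The summed log2 signal of the 13 fibroblast markers was 129.97 and 131.82 in knockout, 136.97 and 134.27 in knockdown, and 126.78, 136.08 and 133.22 in wild type, lowest on this array. The part of this in the members' differences was not tested. Without it, 7 members were higher and 1 lower in knockout below the unadjusted threshold, and 2 were higher and 0 lower in knockdown, while the shares of all genes were 9.49% and 9.63%. The 2 in knockdown were Itga9 (0.50) and Cd47 (0.24). The knockout differences without it were 1.34 for Itga5, 0.99 for Itgb5, 1.30 for Sdc3, 1.51 for Itgb3, 0.84 for Sdc2 and 0.49 for Cd47. Leaving out knockout array 2 gave 6 members in knockout, where 13.4% of all genes had such a p, and leaving out knockdown array 2 gave 2 in knockdown, against 12% of all genes. Leaving out wild-type array 2 gave 13 for both deficient groups against wild type, against 10.1% of all genes. Without both deficient arrays numbered 2, there were 4 in knockout and 2 for both deficient groups, where the shares of all genes were 14.9% and 13.6%. That fit has 1 array in each deficient group, so its spread comes from the wild-type arrays and the prior of limma alone, and the lone arrays are assumed to vary like them. The knockout differences without knockout array 2, the array with female signals, were 1.56 for Itga5, 1.12 for Itgb5, 2.07 for Sdc3, 1.08 for Itgb3, 0.81 for Sdc2, 0.67 for Cd47, 0.73 for Gpc4 and 0.46 for Gpc1.

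**Figure D4:**
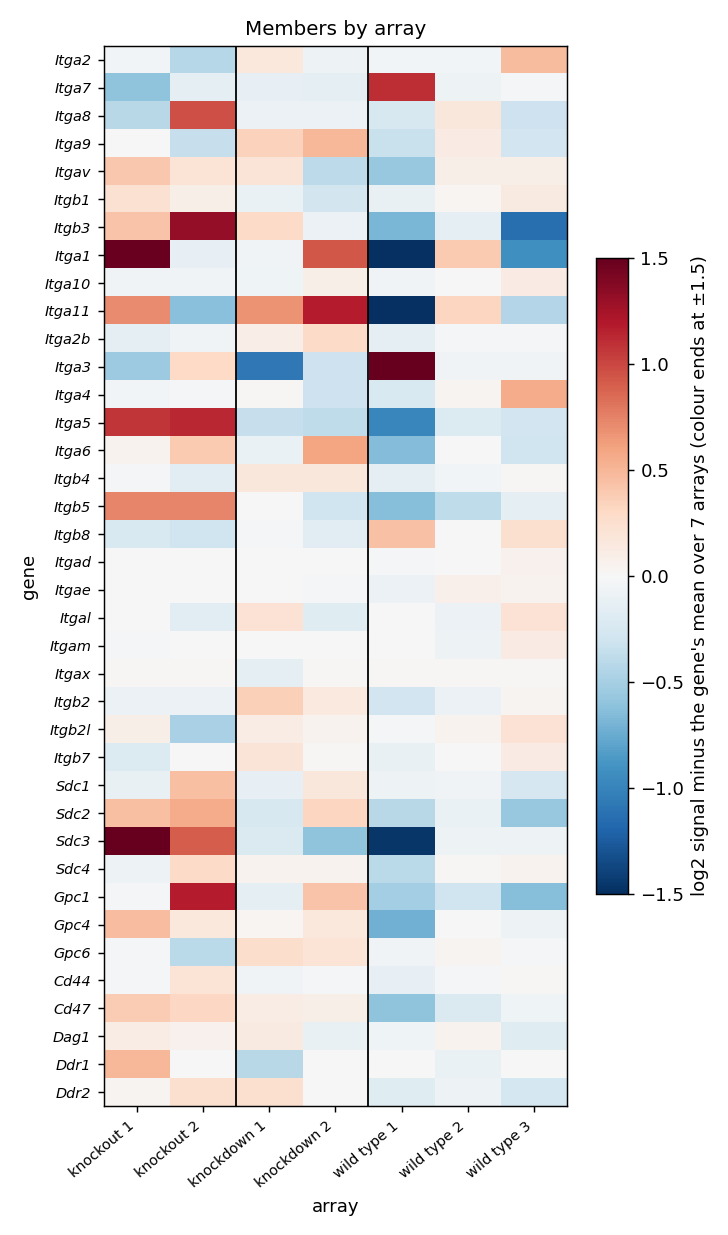
Log2 signal minus the gene's mean over 7 arrays for the 38 members tested (rows, by role), with the arrays in columns and colour ending at ± 1.5. Wild-type array 1 is the lowest array for 15 members, and Itga5 and Itgb5 are red in both knockout columns.

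The median difference from wild type varied between chromosomes in these clones and was largest in knockout on chromosome 15. Among genes averaging more than 7 in log2 signal, the median difference in knockout was 0.48 on chromosome 15, which holds Itga5 and Sdc2, and 0.16 on chromosome 16, which holds Itgb5 and Cd47. It was -0.10 on chromosome 4 (Sdc3), -0.03 on chromosome 11 (Itgb3), 0.03 on chromosome 1 (Gpc1 and Ddr2), -0.06 on the X chromosome (Gpc4) and 0.12 on chromosome 12 (Itgb8). In knockdown the medians were 0.20 on chromosome 15, 0.27 on chromosome 2 (Itga8, Itgav, Itga4, Itga6, Sdc4 and Cd44), -0.39 on chromosome 4, -0.11 on chromosome 16 and -0.12 on chromosome 9, which holds Itga9 and Itga11. The Itga5 and Sdc2 differences of 1.59 and 0.87 were larger than the median of their chromosome, and how far they share in it was not tested.

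**Figure D5:**
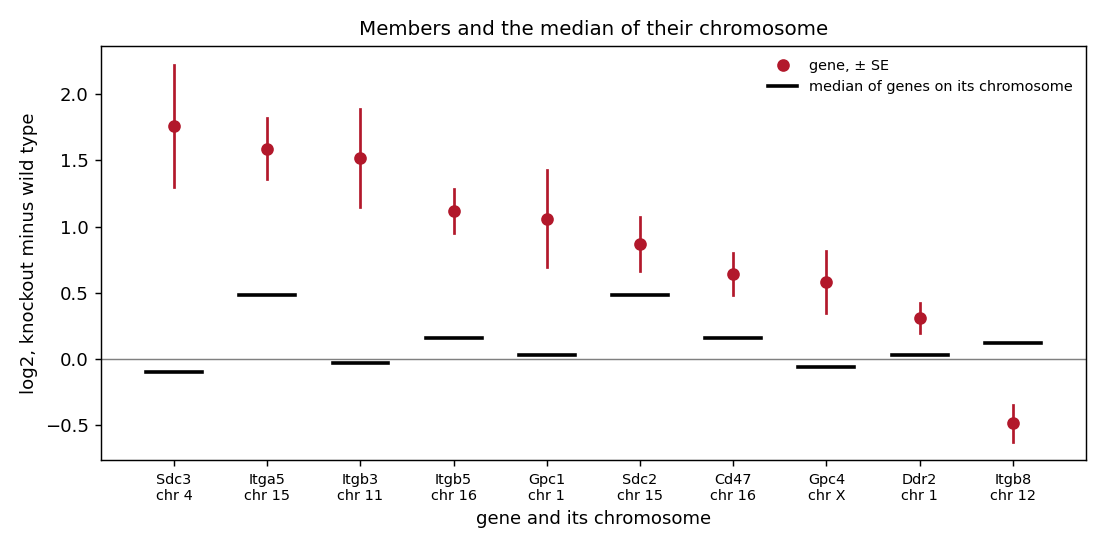
Log2 difference, knockout minus wild type, of the 10 members with an unadjusted p under 0.05 (points, ± SE) beside the median difference of genes with mean log2 signal above 7 on the same chromosome (black bars). Itga5 and Sdc2 share the highest bar, at 0.48 on chromosome 15, and the other bars lie between -0.10 and 0.16.

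Genes that work with these receptors were taken from lists chosen by function. Of 21 tested activators and adaptors of focal adhesions, 6 had an unadjusted p under 0.05 in knockout, all higher, with 0 called by limma after adjustment (28.6% against 12.8% of all genes). The tensin gene Tns1, whose product ties integrin tails to actin, had 8.96 and 9.08 in knockout and 8.03 and 7.76 in knockdown, against 7.71, 8.03 and 7.50 in wild type (knockout difference 1.28, limma adjusted p = 0.0686). Of the 6 Tns1 probe sets, only that of highest mean is given here. Tns2 had 8.28 and 8.69 in knockout and 7.64 and 7.49 in knockdown, against 6.57, 7.36 and 6.69 in wild type (1.61, limma adjusted p = 0.0927), and vinculin (Vcl) differed by 0.69. In knockdown 2 were higher, Tns3 (0.22) and Tns2 (0.69), and 1 was lower (14.3%, against 14.1% of all genes). The lower gene was talin 1 (Tln1), the integrin activator, with 9.83 and 9.65 in knockout and 9.48 and 9.34 in knockdown, against 9.83, 9.91 and 9.85 in wild type (knockdown difference -0.45, limma adjusted p = 0.162).

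Of 8 kinases and docking proteins tested, 2 had an unadjusted p under 0.05 in knockout, both higher (25%, against 12.8% of all genes). Ptk2b, a focal adhesion kinase relative, had 7.22 and 7.85 in knockout and 5.97 and 5.90 in knockdown, against 5.52, 5.97 and 5.73 in wild type (knockout difference 1.79, limma adjusted p = 0.0599), and Fyn differed by 0.50. In knockdown 1 of 8 had an unadjusted p under 0.05 (12.5%, against 14.1% of all genes), Crkl, at -0.28. Of 15 matrix ligands, Tnc was the 1 called in each comparison with wild type, and 8 others were higher in knockout at an unadjusted p under 0.05. With Tnc this is 60.0% of the list, against 12.8% of all genes, and in knockdown the share was 20.0%, against 14.1%. The collagen gene Col4a1 differed by 1.29 (limma adjusted p = 0.163) and the laminin gene Lamb1 by 0.48 (limma adjusted p = 0.226). In knockdown Emilin1, a ligand of alpha9beta1, differed by 1.00 (limma adjusted p = 0.162) and Col1a1 by 0.52 (limma adjusted p = 0.324). Of 5 tenascin-C receptors outside the integrins (Egfr, Tlr4, Anxa2, Ptprz1 and Cntn1), limma gave 0 at an unadjusted p under 0.05 in either comparison, and the smallest adjusted p was 0.450.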

How the data were processed

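The files hold 1 table of log2 signals deposited by the authors, 1 column per array for 7 arrays, running from 1.81 to 13.7. Per the submitters' processing notes the tools were the affy package and R 2.8.0; how the signals were summarised, background-corrected and normalized is not given in any source used here. The range of the values shows the log2 scale. Every column was used. No probe detection calls were used, so dim genes are judged against the array median (5.38 to 5.49) and 25th percentile. For arrays the number of replicates limits the precision.

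Of 34760 probe sets, 21640 named a single gene in the platform annotation, covering 19937 genes; all 39 members matched the RefSeq gene table of GRCm38.p6 by gene identifier. The probe set of highest mean was used for each gene. A gene was tested where its signal exceeded the array's 25th percentile on 2 or more arrays. Limma 3.58.1 in R 4.3.3 fitted 1 mean per group over all 7 arrays (lmFit and eBayes, two-sided, 4 residual and 2.06 prior degrees of freedom), with Benjamini-Hochberg adjustment over all 16801 genes. A gene is said to have changed at an adjusted p under 0.05. The fit was also run on simulated data with independent normal noise around each gene's mean. Such data hold no array or chromosome that stands apart, so that run says nothing about these features. No list was tested as a set. The members and lists were chosen with earlier results of these data known.

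Members with values on every array are the tenascin-C receptors and those with an unadjusted p under 0.05 in knockout or knockdown against wild type or between knockout and knockdown, or with a log2 difference of at least 1 against wild type. Of each partner list at most 3 genes of smallest p per comparison are named. Some listed partners are not analysed here. Alternatives were other filters, normalizations, probe set rules, weights and variance models, fits of the compared groups alone, a replicate block, and leaving out arrays.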

Additional observations from a re-analysis of the deposited data

How the results depend on the processing

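Of 46 member differences followed through 17 alternatives, 36 kept their direction in each. Members called in knockout numbered 0, and 1 with the stricter filter, with centring and without wild-type array 1. In these fits 79, 71 and 14 genes were called in all, against 28 in the main fit. Between knockout and knockdown the count was 0, and 1 without wild-type array 1, where 16 genes were called in all, against 63. At an unadjusted p under 0.05 the count in knockout was 10, from 6 to 13 with single arrays left out and 4 without both deficient arrays numbered 2. In knockdown it was 6, from 2 to 7 with single wild-type arrays left out and 3 with array weights. After quantile normalization it was 9 (8 higher and 1 lower), and after centring 5 (3 higher and 2 lower). For both deficient groups it was 8, from 7 to 13 and 2 without both arrays numbered 2, and between knockout and knockdown 9, from 5 to 10, with 5 after quantile normalization and 3 without both arrays numbered 2. The median of the other members in knockout, 0.13, was 0.30 with the stricter filter, 0.02 without both arrays numbered 2 and 0.02 to 0.14 with single arrays left out. In knockdown it was 0.22 with the stricter filter, 0.18 after quantile normalization, 0.23 with the replicate block and 0.04 to 0.23 with single arrays left out. The receptor median in knockdown was -0.21 to 0.14 with single arrays left out. The replicate numbers are clone numbers that do not pair the groups (correlations of deviations -0.07 to 0.20), and the replicate block called 0 members in each comparison. That fit called 2 of 16801 genes in knockout and 0 in knockdown. Tnc did not pass in it (limma adjusted p = 0.274 and 0.286), so its 0 members say little about these genes.

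The differences that reversed were at most 0.40 in size (Itga8 in knockout). Itga9 in knockout was 0.04 after quantile normalization and after centring and 0.16 without both arrays numbered 2; Itga2b was 0.00 and 0.02, and Itgb4 0.00 and 0.01, under these 2 normalizations, with Itgb4 at 0.04 without both arrays numbered 2. Itga8 was -0.29 in knockout without both arrays numbered 2, and in knockdown -0.10 with array weights and -0.06 with the replicate block. With array weights Itgav was -0.06 and Sdc3 -0.07 in knockdown, and Itga2 was 0.08 with the replicate block and 0.03 without both arrays numbered 2. With single arrays left out, knockout differences lay for Itga2b between -0.07 and 0.01, Itga8 between -0.29 and 1.09, Itga9 between -0.18 and 0.16, Itgb2 between -0.06 and 0.11, Itgb4 between -0.11 and 0.04, and knockdown differences for Itga2 between -0.21 and 0.08, Itga5 between -0.12 and 0.28, Itga8 between -0.06 and 0.19, Itgav between -0.26 and 0.33, Sdc3 between -0.34 and 0.36. The cause of these changes was not tested. Array number limits the precision throughout.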

Other observations

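Exactly equal values on 2 or more arrays were found for 13 of the 38 members tested (34.2%) and for 50.5% of all genes tested. Itgad read 5.25 on 5 arrays.

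Ptprz1, a receptor phosphatase that binds tenascin-C and is known mainly from glia, had 7.23 and 5.23 in knockout and 3.69 and 3.42 in knockdown, against 3.17, 3.71 and 6.32 in wild type; its knockout and wild-type clones were widely scattered. Egfr, whose product binds the EGF-like repeats of tenascin-C, had 7.50 and 7.68 in knockout and 7.23 and 6.57 in knockdown, against 5.69, 7.06 and 7.11 in wild type, and was lowest on wild-type array 1.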
